A study of Carica papaya with 7 samples.

Results

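The cytochrome b6f complex of plastids passes electrons from plastoquinol to plastocyanin between both photosystems and moves protons into the thylakoid lumen. It also takes part in cyclic electron flow around photosystem I. Part of it is encoded in the plastid genome and part in the nucleus. The plastid genes are petA for cytochrome f, petB for cytochrome b6, petD for subunit IV, and petG, petL and petN for small membrane subunits. The Rieske protein (PETC) and the small subunit PETM are made from nuclear genes. In ripening fruit, chloroplasts lose their thylakoids and chlorophyll as they turn into chromoplasts.

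All 6 plastid genes of the complex were found by symbol among the plastid probe sets of the Arabidopsis ATH1 GeneChip, with 1 probe set each, out of 22746 probe sets that were not controls. The study hybridized cRNA from pulp of 'Golden' papaya (Carica papaya) to this array, so that papaya transcripts were read by Arabidopsis probes. Ripe pulp and unripe pulp were compared, with 3 deposited columns each. Peel and seeds had been removed and each sample pooled 12 fruits. All fruit were picked from colour break onward, around 150 days after anthesis, and ripe pulp came from fruit that ripened after harvest. Per the paper, 1 replicate of each stage came from an earlier harvest year than the others. Values are Robust Multichip Average (RMA) signals on a linear scale.

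Within each stage, replicate 2 was replicate 1 multiplied by 1.19 and replicate 3 was the mean of both, within a tolerance of 0.0011 in the signal for 22806 of 22810 probe sets in ripe pulp and 22800 in unripe pulp. Each stage therefore held 1 independent set of values. No SD and no p-value can be given for the differences, which compare the ripe with the unripe set of values once. A difference is the log2 signal averaged over ripe columns, less the same average over unripe columns. Over all probe sets the median signal was 4.21 in ripe and in unripe pulp, and the median difference was -0.0047. The 27 probe sets for Bacillus subtilis genes, which match no plant gene, had differences from -0.28 to 0.12 and a highest mean signal of 8.24. They serve here as a measure of background. The bioB, bioC and bioD hybridization controls had a median difference of -0.60, and the cre controls one of -0.053. Scaling to the first would add 0.60 to every difference.

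Of the 6 genes, petN stood apart with a lower signal in ripe pulp, while petB, petD, petG and petL were slightly lower and petA slightly higher. The log2 differences ran from -0.76 for petN to 0.11 for petA, with a median of -0.15. Only petN passed a log2 difference of 0.32 either way, and petN was lower in ripe pulp under each of the scalings tried. This is the fold used by the study. The study also required an ANOVA p-value under its cut-off, on masked probes, so passing 0.32 here is not the study's call. Scaled to bioB, bioC and bioD, petN was no longer past 0.32, at -0.15, and the other 5 genes were higher past it. That scaling adds 0.60 to every probe set, so most of the array is then higher past 0.32 too. Only 6.10% of all probe sets had a deposited difference below -0.27. Centred on the plastid median, petN passed as lower and petA as higher. This centring adds 0.26 to every probe set. The mark for higher is then about 0.057 as deposited, and 65.9% of all probe sets lay below it. The signs of petB, petD, petG and petL turned positive when scaled to bioB, bioC and bioD or centred on the plastid median. By any amount 5 of the 6 genes were lower, against 51.3% of all probe sets and 79.2% of the 77 plastid probe sets. As deposited, 3.53% of all probe sets were lower in ripe pulp past 0.32 and 3.57% higher. Of the plastid probe sets 45.5% were lower past 0.32 and 6.49% higher. In whole pulp, fewer plastids or cells and less RNA per cell cannot be told apart.

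The small subunit gene petN (probe set 245000_at) is required for assembly of the complex in tobacco. Its signals were 33.3, 39.6 and 36.4 in the ripe columns, against 56.3, 67.0 and 61.6 in the unripe columns. Every ripe column lay below every unripe column, which was the case for 7.47% of all probe sets. As the columns of a stage are proportional, overlap or its absence, here and for the other genes, follows from the ratio of both stages alone and shows no agreement between replicates. The log2 difference of -0.76 is a signal in ripe pulp 0.591 times that in unripe pulp. Of all probe sets, 16 had a lower difference, and 8 of those were plastid probe sets. The signal was 4.42 times that of the brightest bacterial control in ripe pulp and 7.48 times in unripe pulp.

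The small subunit gene petG (244966_at), also required for the complex in tobacco, gave signals of 63.7, 75.8 and 69.7 in ripe pulp, against 68.9, 81.9 and 75.4 in unripe pulp. The columns of both stages overlapped, and the log2 difference was -0.11. For petL (244965_at), a small subunit that tobacco can do without, the signals were 33.0, 39.2 and 36.1 in ripe pulp and 36.7, 43.7 and 40.2 in unripe pulp. Its columns overlapped as well, and its difference was -0.16.

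Cytochrome b6, the product of petB (244976_at), carries the hemes that pass electrons across the membrane. Its gene had signals of 31.2, 37.2 and 34.2 in ripe pulp, against 34.5, 41.1 and 37.8 in unripe pulp. The ripe columns were on the low side and overlapped with the unripe ones, at a log2 difference of -0.15. The gene of subunit IV, petD (244977_at), follows petB on the plastid genome. Its signals were 6.75, 8.03 and 7.39 in ripe pulp and 7.50, 8.92 and 8.21 in unripe pulp, again a difference of -0.15. Its mean signal was just under the brightest bacterial control in both stages, at 0.897 times it in ripe pulp and 0.996 times in unripe pulp.

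Cytochrome f, made from petA (245020_at), hands electrons to plastocyanin. The signals of petA were 3.82, 4.54 and 4.18 in ripe pulp, against 3.54, 4.21 and 3.88 in unripe pulp. They overlapped and lay near the median of the array, with 49.1% of probe sets dimmer in ripe pulp and 40.1% dimmer in unripe pulp. The probe set was at 0.507 times the brightest bacterial control in ripe pulp and 0.470 times in unripe pulp. The difference of 0.11 was within the range of the bacterial controls, and petA transcripts were not detectable above background.

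**Figure D1:**
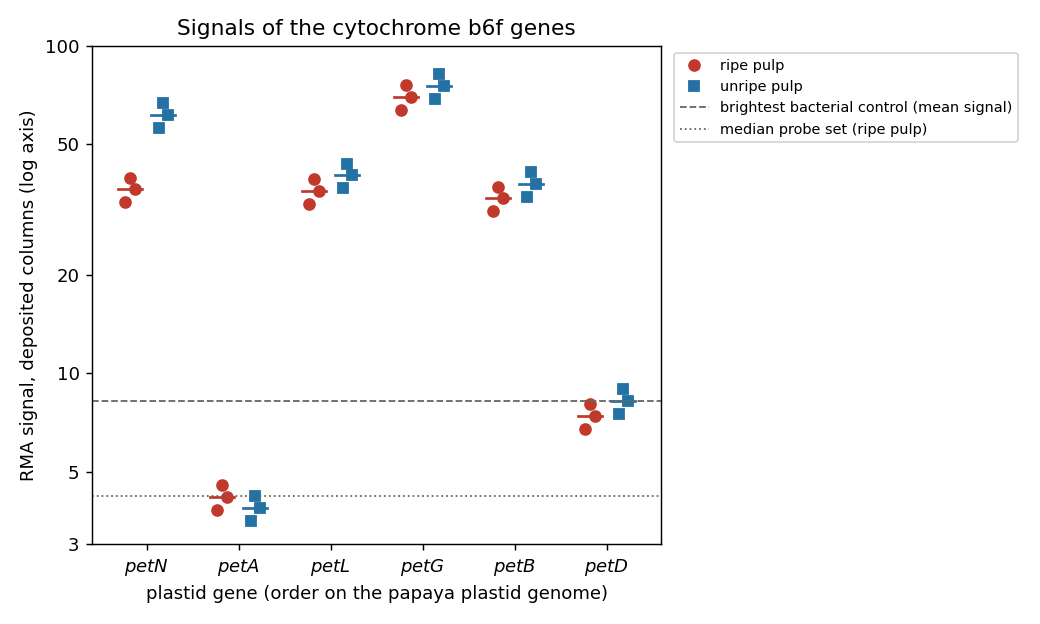
RMA signals (log axis) of the 6 plastid cytochrome b6f genes in the 3 ripe and 3 unripe columns, with a bar at each mean; the dashed line is the brightest bacterial control (8.24) and the dotted line the median probe set in ripe pulp (4.21). The columns of a stage are proportional to each other and are not independent. Only petN has all ripe points below all unripe points.

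Of the 6 genes, 4 (petN, petL, petG and petB) were brighter than every bacterial control in both stages, and petA and petD in neither. The differences of petL, petG, petB and petD spanned 0.044 on the log2 scale. They lie on the plastid genome as adjacent pairs, petL with petG and petB with petD. All 4 values fell within the range of the bacterial controls. These controls were dimmer than petB, petG and petL, so their range does not measure the scatter at those signals. Between 17.9% and 24.9% of all probe sets had a lower difference. The gap from petN to the next member was 0.60. Without petN the median of the members was -0.15, as with it.

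**Figure D2:**
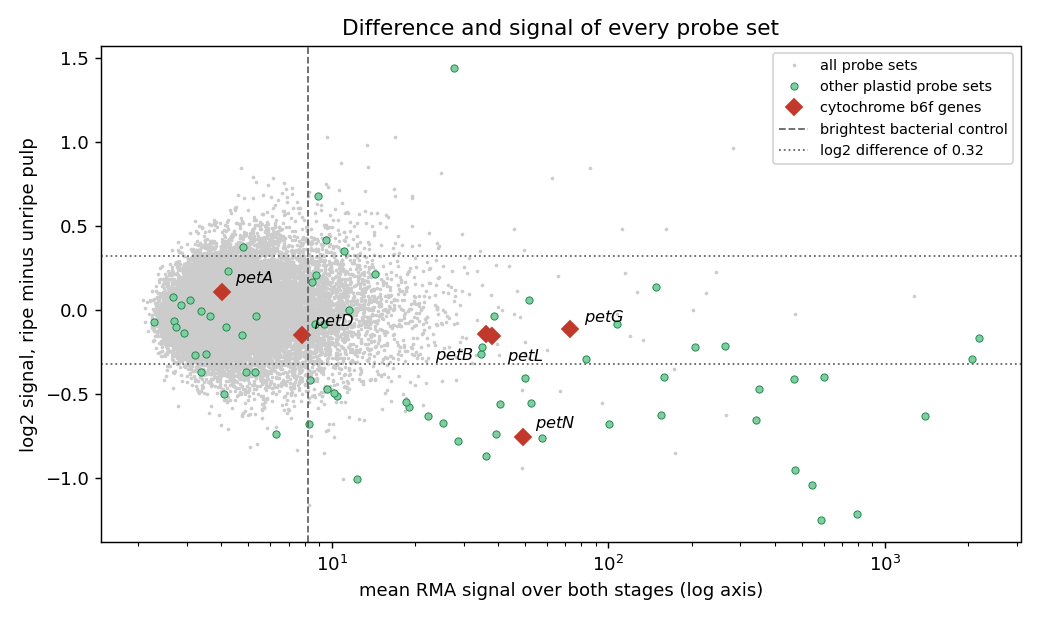
Log2 difference of ripe minus unripe pulp against mean RMA signal over both stages (log axis) for all 22746 probe sets, with plastid probe sets in green and the cytochrome b6f genes in red; the dashed line is the brightest bacterial control and the dotted lines are log2 differences of 0.32 either way. The gene petN is at -0.76, and the other 5 genes lie between the dotted lines; petB, petD, petG and petL would be above 0 if scaled to bioB, bioC and bioD or centred on the plastid median.

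The plastid genes of the complex are spread over the genome in separate gene clusters, so each was set beside its neighbours. The order of genes was taken from the RefSeq annotation of papaya (assembly ASM5485532v1), by start position and without regard to strand. Neighbours in this order need not share a transcript, and whether they do was not tested. In papaya petN lies between rpoB, a subunit gene of the plastid RNA polymerase, and psbM, of photosystem II. Their signals were 21.1 and 43.0 in ripe pulp, against 36.2 and 56.9 in unripe pulp. The differences were -0.78 for rpoB and -0.40 for psbM, so that both neighbours of petN were lower in ripe pulp past 0.32, though psbM would be above 0 if scaled to bioB, bioC and bioD.

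The genes petB and petD belong to the transcription unit of psbB, psbT and psbH, whose common RNA is cut into shorter ones in plants. The difference of psbH, a photosystem II subunit directly before petB, was -0.037, with signals of 38.1 in ripe pulp and 39.1 in unripe pulp. At the start of the unit, psbB, the gene of the CP47 antenna protein, went the other way. Its signal was 11.0 in ripe pulp, against 6.85 in unripe pulp, a difference of 0.68. The probe set of psbT was below the brightest bacterial control, at 2.88 in ripe pulp and 2.82 in unripe pulp. On the opposite strand inside the unit, psbN was at -0.47. The RNA polymerase gene rpoA, next after petD, was at 0.057. The signal of petD was under the brightest bacterial control in both stages, that of psbB in unripe pulp and that of psbN in ripe pulp, so their differences rest on signals that were not above background in those stages.

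Before petA lie psaI, ycf4 and cemA. A small subunit gene of photosystem I, psaI, had a signal of 11.6 in ripe and in unripe pulp. The product of ycf4 takes part in assembly of that photosystem. Its gene was at 0.14, with signals of 156 in ripe pulp and 142 in unripe pulp. The envelope protein gene cemA was at 0.21, with signals of 9.41 in ripe pulp and 8.16 in unripe pulp. The unripe signal was under the brightest bacterial control, at 0.990 times it, so this difference rests in part on a signal at background. After petA comes psbJ, which was lower in ripe pulp at -0.87.

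The genes petL and petG are next to each other, and their differences were 0.044 apart. The photosystem I gene psaJ follows them and was at -0.22, with signals of 244 in ripe pulp and 283 in unripe pulp. The ribosomal protein genes rpl33 and rps18 come next, at -0.37 each, with signals below the brightest bacterial control in both stages. On the other side of petL, psbE, the gene of a cytochrome b559 subunit, was at -0.76, with a signal of 42.8 in ripe pulp against 72.6 in unripe pulp. The difference of petL was thus 0.60 above that of psbE.

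**Figure D3:**
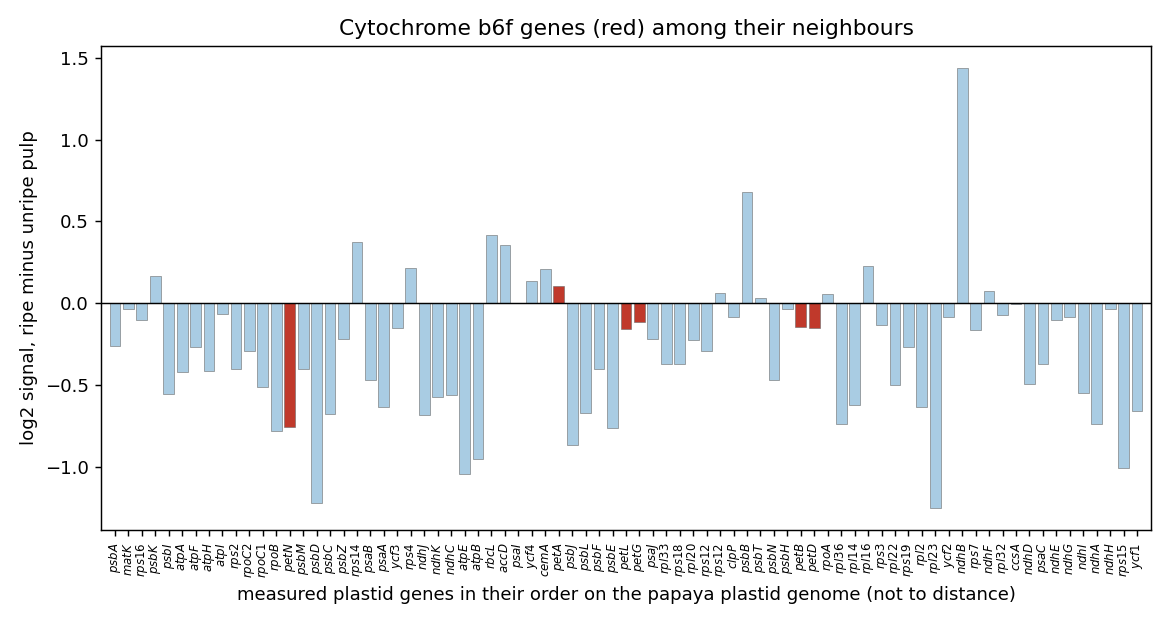
Log2 difference of ripe minus unripe pulp for each of the 77 plastid probe sets, in the order of their genes on the papaya plastid genome (equal spacing, not distance), with the cytochrome b6f genes in red. The bar of petN (-0.76) stands next to that of rpoB (-0.78), while petL and petG lie between psbE (-0.76) and psaJ (-0.22); centring on the plastid median would add 0.26 and scaling to bioB, bioC and bioD 0.60 to every bar.

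The cytochrome b6f genes were set beside the other plastid groups. The median over the 6 genes was -0.15, and over the 71 other plastid probe sets it was -0.29. The ATP synthase genes had a median of -0.42, the photosystem II genes one of -0.40 and the photosystem I genes one of -0.37. Lower past 0.32 were 1 of 6 cytochrome b6f genes, 4 of 6 ATP synthase genes, 9 of 15 photosystem II genes and 3 of 5 photosystem I genes. Over all probe sets of a group, small medians were not particular to cytochrome b6f. The small ribosomal subunit genes had a median of -0.17, with 3 of 11 probe sets lower past 0.32. The plastid genes outside these complexes had one of -0.020, with 1 of 10. Among probe sets above the brightest bacterial control, the median was -0.15 for 4 of cytochrome b6f and -0.29 for 5 of the small ribosomal subunit. All of these were above it in both stages. Outside these complexes, rbcL (0.41) and cemA (0.21) were above it in ripe pulp only. Such a filter favours positive differences, so no filtered median is compared for that group. With 1 set of values per stage these differences between complexes were not tested. Relative to the plastid median of -0.26, petN was at -0.49 and the other 5 genes were above it, by 0.11 for petL, 0.11 for petD, 0.12 for petB, 0.15 for petG and 0.37 for petA.

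**Figure D4:**
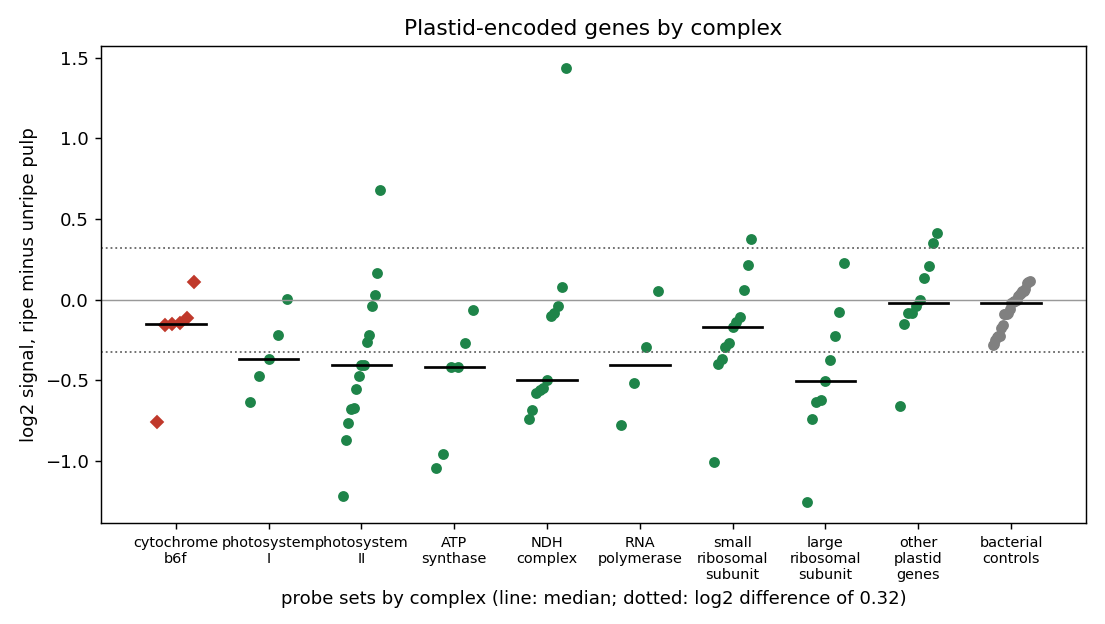
Log2 difference of ripe minus unripe pulp for plastid probe sets by complex and for the 27 bacterial control probe sets; each point is a probe set, the black lines are medians and the dotted lines log2 differences of 0.32 either way. Of the cytochrome b6f genes (median -0.15) 5 cluster near 0 and petN lies at -0.76, while the median is -0.42 for ATP synthase and -0.40 for photosystem II; all medians would be raised by 0.60 if scaled to bioB, bioC and bioD.

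The plastid genes with signals closest to the median profile of the 6 members over both stages were psbH, rpl20, psbA, ndhC and rpl36. The median profile was 35.1 in ripe pulp and 39.0 in unripe pulp. The Euclidean distances over the 2 log2 signals ran from 0.12 for psbH to 0.42 for rpl36. Their differences were -0.037 for psbH, -0.22 for rpl20, -0.26 for psbA, -0.56 for ndhC and -0.74 for rpl36. These signals also depend on how well papaya sequence binds each probe, so nearness in signal is not nearness in transcript level.

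Of 43 nuclear genes listed for the complex, its electron partners, its assembly and light harvesting, 8 were matched to a probe set. Of these 4 were higher and 4 lower in ripe pulp, none past 0.32, with a median of -0.0070. The Rieske gene PETC, plastocyanin, ferredoxin and ferredoxin-NADP reductase were not matched to a named probe set. PETM (AT2G26500), the only nuclear subunit measured, had signals of 4.25 in ripe pulp and 3.95 in unripe pulp, a difference of 0.11. PGRL1B, of cyclic electron flow, was at 0.027.

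The assembly genes were on both sides of 0. CCB3, needed to attach a heme to cytochrome b6, was at -0.16. CCS1 (AT1G49380), for maturation of c-type cytochromes such as cytochrome f, was at 0.10. CCDA, which carries reducing power into the thylakoid for the same step, had signals of 10.005 in ripe pulp and 9.28 in unripe pulp, a difference of 0.11. It was the only one of the 8 genes brighter than the bacterial controls. AT5G42310, the Arabidopsis counterpart of maize CRP1, which acts in processing of petB and petD RNA, was at -0.041. The light-harvesting genes LHCB4.1 and LHCB4.2 were at -0.30 and -0.11.

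The labelled tissue could be checked only in part. Of 10 marker genes of softening and ripening pulp 4 were matched (EXPA4, EXPA8, ADPG1 and EIN3), and none was brighter than the brightest bacterial control. Their summed signal was 16.1 in ripe pulp and 16.5 in unripe pulp. None of the markers of seed, peel or vascular tissue was matched, so that their part in these differences was not tested.

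The differences of the 6 genes depended on the scaling. Scaling to controls or centring on a median adds the same amount to every difference, so the order of the genes cannot change. Quantile normalization could change the order, and petN kept the lowest value of the 6 under it. Scaled to bioB, bioC and bioD, petA was at 0.71 and petB, petD, petG and petL between 0.45 and 0.49. Scaled to cre, petN was at -0.71 and petG at -0.060. Under quantile normalization petN was at -0.63, petG at -0.16 and petB at -0.070.

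**Figure D5:**
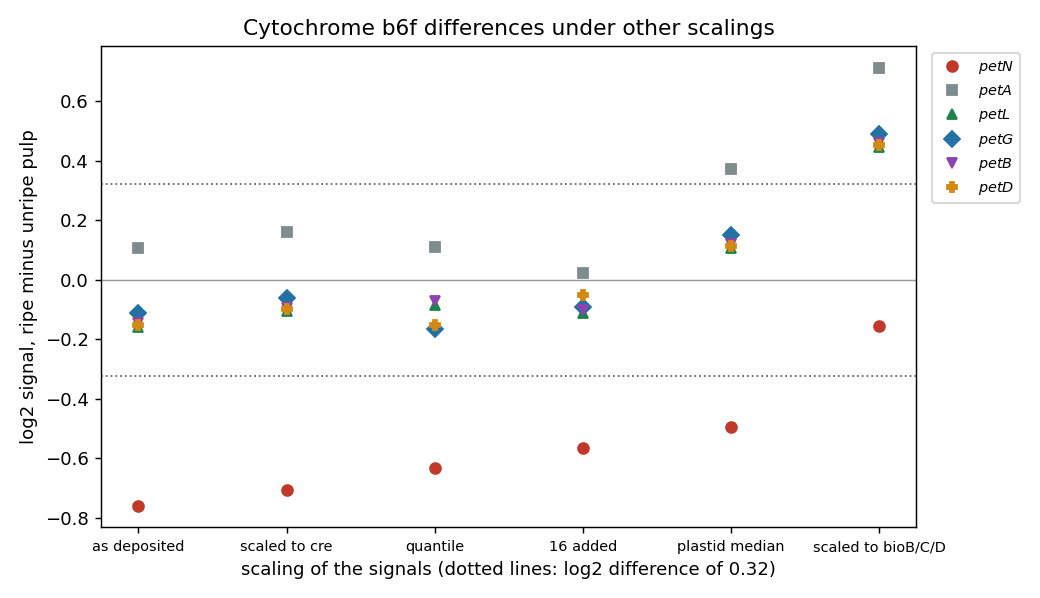
Log2 difference of ripe minus unripe pulp of each cytochrome b6f gene under 6 scalings; dotted lines are log2 differences of 0.32 either way. The gene petN is below 0 throughout, from -0.76 as deposited to -0.15 with the bioB, bioC and bioD scaling, while petB, petD, petG and petL are above 0 in both scalings at the right, to the plastid median and to bioB, bioC and bioD.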

How the data were processed

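Per the paper's methods, the authors used MAS 5.0 for CEL files, GeneSpring 7.2 for RMA, and a hybridization of papaya genomic DNA for the masking of probes. The deposited intensity of a probe set is its RMA signal on a linear scale. The table holds a value for 22810 probe sets, the whole array, and so is not limited to probe sets kept by a mask. Whether single probes were masked is not stated. The genomic DNA column holds no values in the table used here (1 column not used), so this signal is not reported.

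Signals under 1 would be raised to 1 before log2. Members were probe sets numbered 244932 to 245050 with a symbol of pet and a capital letter. Plastid probe sets had 1 symbol, held in the plastid part of the papaya RefSeq table. Of 22746 probe sets 13523 had 1 symbol, 493 several and 8730 none. Members and lists were chosen with earlier results of these data known. Named genes were the members, genes next to them or in the same unit, measured nuclear list members and the 5 plastid genes nearest in signal. The planned linear model needs a spread between replicates and was not run, and the rule on nearness used both stages without genomic DNA. The marker FDH was left out, since 2 genes bear this symbol. Counts past a log2 difference of 0.32 describe 1 set of values per stage. Arrays give no depth. Alternatives were other scalings, 16 added to each signal, filters on dim signals and leaving out columns. The calculation was tested on simulated data. Python 3.11.15, numpy 2.4.6, pandas 2.3.3 and matplotlib 3.10.9 were used.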

Additional observations from a re-analysis of the deposited data

How the results depend on the processing

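The median difference of the 6 genes, -0.15 as deposited, was -0.12 under quantile normalization and -0.15 with each column centred on its median. It was -0.15 without petA and petD, which were under the brightest bacterial control. It was -0.096 when scaled to cre and -0.097 with 16 added to each signal. It was 0.12 when centred on the plastid median and 0.46 when scaled to bioB, bioC and bioD, where the sign turned. Leaving out columns or replicate numbers gave -0.21 to -0.085, since columns differ by a constant factor. The number of genes lower past 0.32 was 1 (petN), and 0 with the bioB, bioC and bioD scaling. The number higher was 0 as deposited, 1 (petA) when centred on the plastid median and 5 when scaled to bioB, bioC and bioD. Both shifts apply to every probe set, and the latter puts most of the array past 0.32 as higher. With the replicate number as a block the median stayed at -0.15, as the difference within each number was the same, so the pairing could not be tested. The median of the nuclear genes, -0.0070, was 0.60 when scaled to bioB, bioC and bioD, 0.046 when scaled to cre, 1.9e-06 with 16 added and 0.11 for CCDA alone, the only one above the bacterial controls. The comparison with genomic DNA and the ANOVA were not run. The single set of values of each stage and the dim signals of petA and petD limit precision.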
